A study of Mus musculus with 25 samples.

Results

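An siRNA against the BLM helicase was compared with one against luciferase in BRCA1del mouse embryonic stem cells that received Tus, by the joins that a Cas9-cut bait end made with a reporter cassette carrying Ter sites. All rows of the siBLM and siLuciferase junction tables of this genotype and effector were used, which gave 2772 junctions (1347 with siBLM and 1425 with siLuciferase) of 11867 in the whole series. Cells of both groups carried the genotype labelled BRCA1del/exon11 and a 4-kb 1xGFP cassette in the ROSA26 locus, were grown on feeder cells, and were transfected with Tus, Cas9 with a guide RNA that cuts 30 kb away from the cassette, and an siRNA against BLM or luciferase. Genomic DNA was taken 48 h later, and both groups had 3 samples by the labels. The labels do not say whether samples were separate cultures or whether the line is a single clone, and the remaining BLM level was not analysed here. BRCA1flox/exon11 cells given the same siRNAs and Tus, with 2 samples each, serve below as the comparison between genotypes.

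BLM is a RecQ-family DNA helicase that unwinds recombination intermediates, acts with topoisomerase III-alpha to dissolve double Holliday junctions without crossover, and takes part in the resection of broken ends. BRCA1 acts in the repair of broken and stalled replication forks by homologous recombination. Tus is a bacterial protein that binds Ter sites tightly and blocks the replication fork that meets it from one side, so a Ter array in a mammalian chromosome gives a fork barrier at a known place. A bait end joined to the array is read as the capture of a free DNA end there, and the direction in which the joined (prey) DNA runs gives the side it came from.

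Positions are those of the deposited tables, 1-based along the cassette, and not of a genome build. The array window ran from 3025 to 3276 and held 6 Ter elements of 23 bp, the first at 3049 to 3071 and the last at 3222 to 3244, followed by an I-SceI site at 3259 to 3276. Ter 1 to 3 and Ter 4 to 6 lie in a pair of identical 116-bp copies, so a read that ends inside the array may fit either copy. Elements, distances and medians within the array were taken only from reads that also reached 20 bp of unique sequence outside it (called placed joins here), and the counts at single positions say how many were placed. A leftward join has prey running from the junction toward position 1, through Ter 1 and out of the array on that side. A rightward join has prey running toward the I-SceI site and the GFP sequence. The cassette body ended at 3616, before the last XbaI site, and XbaI was used for blocking.

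The bait end is the sequence that every join has in common, and its last bases decide which microhomologies it can form. The labels give the bait as a guide site 30 kb from the cassette in ROSA26, a locus on mouse chromosome 6 in the RefSeq annotation, whereas the library protocol in the labels names RAG1 primers, and the sequence was not placed in a genome here. It is given as the reads have it, 5′ to 3′ toward the cut, with the last 10 bases before the cut in capitals.
Bait end up to the cut: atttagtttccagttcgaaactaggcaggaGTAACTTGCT
The 6 microhomologies of 4 bp or more that joined the bait to the array most often over both siRNAs are shown next, each as the last 30 bait bases kept in the join with the shared bases in capitals, since they show which part of the bait end was used.
ACTT, 3 bp lost: ttccagttcgaaactaggcaggagtaACTT
TTTAGTT, 32 bp lost: tgtctttgggaaagagagatataTTTAGTT
AGTT, 25 bp lost: gggaaagagagatatatttagtttccAGTT
AGTA, 7 bp lost: tagtttccagttcgaaactaggcaggAGTA
GTAACT, 4 bp lost: tttccagttcgaaactaggcaggaGTAACT
TCGA, 22 bp lost: aaagagagatatatttagtttccagtTCGA

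Each sequencing run of a group was treated as a library, and siBLM and siLuciferase shared runs B, C and D. The siBLM libraries held 589, 593 and 165 junctions, and the siLuciferase libraries 602, 570 and 253 in the same runs, within the 148 to 933 junctions per library of the series. The reads of runs C and D of a group began with the same 5 bases and those of run B with others, so runs C and D may not be separate libraries. They shared no read sequence. Runs C and D had 20 siBLM and 22 siLuciferase alignments in common, 13.2% and 9.36% of those in the smaller library. Runs B and C had 36 siBLM and 44 siLuciferase alignments in common (6.87% and 8.98%). Runs B and D had 21 siBLM and 19 siLuciferase alignments in common (13.8% and 8.09%). With runs C and D taken as 1 library, chosen after seeing the data, the exact stratified calls below were the same, but the permutation over 4 libraries could not go below 0.333. Run D rests on the fewest joins in both groups, with 79 array joins for siBLM and 160 for siLuciferase. The shares below are per library, and differences are the mean over the 3 runs of siBLM minus siLuciferase in percentage points. Tests are two-sided exact tests over junctions with the run as stratum, adjusted by Benjamini-Hochberg over 9 shares. Beside them stands an exact permutation test over the 6 libraries, which cannot go below 0.1. It regroups the libraries without regard to run, and for the shares its p-values were not adjusted. Joins amplified from bulk DNA are not independent molecules, so the p-values over junctions and all intervals cover counting error only, and a p over libraries measures their spread, which may be technical.

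The share of joins that reached the body, and the share of those in the Ter array, did not pass the test. Body joins made up 74.9%, 62.1% and 60% of the siBLM junctions in runs B, C and D, against 68.8%, 59.6% and 71.1% of the siLuciferase junctions. The siBLM value was above that of siLuciferase in runs B and C and below it in run D. The mean difference was -0.879 points (common odds ratio 1.10, 95% interval 0.935 to 1.28, adjusted exact p = 0.384). Among body joins, 80.7%, 78% and 79.8% lay in the array with siBLM, against 79%, 79.4% and 88.9% with siLuciferase. That difference was -2.92 points (adjusted exact p = 0.671). The array was thus the main landing place in every library of both groups, with 722 of 908 body joins with siBLM and 757 of 934 with siLuciferase. Joins right of the I-SceI site were rare, 17 with siBLM and 18 with siLuciferase.

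Rightward joins within the array took a larger share with siBLM. They were 18.3%, 15% and 16.5% of the array joins in siBLM runs B, C and D, against 10.7%, 7.78% and 13.8% in the siLuciferase runs. The lowest siBLM library lay above the highest siLuciferase library, so the groups did not overlap. The mean was 16.6% ± 1.64 with siBLM and 10.7% ± 2.99 with siLuciferase (SD, n = 3 libraries each). The difference was 5.82 points, with a common odds ratio of 1.81 (95% interval 1.32 to 2.46). It passed the exact test (adjusted p = 0.00185), and the exact permutation over libraries gave 0.1, the smallest it can give. In counts, 121 of 722 array joins were rightward with siBLM and 78 of 757 with siLuciferase. Without run C the difference was 5.13 points and missed the threshold (adjusted exact p = 0.0717), and among placed joins alone it was 3.94 points (adjusted exact p = 0.0924).

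**Figure D1:**
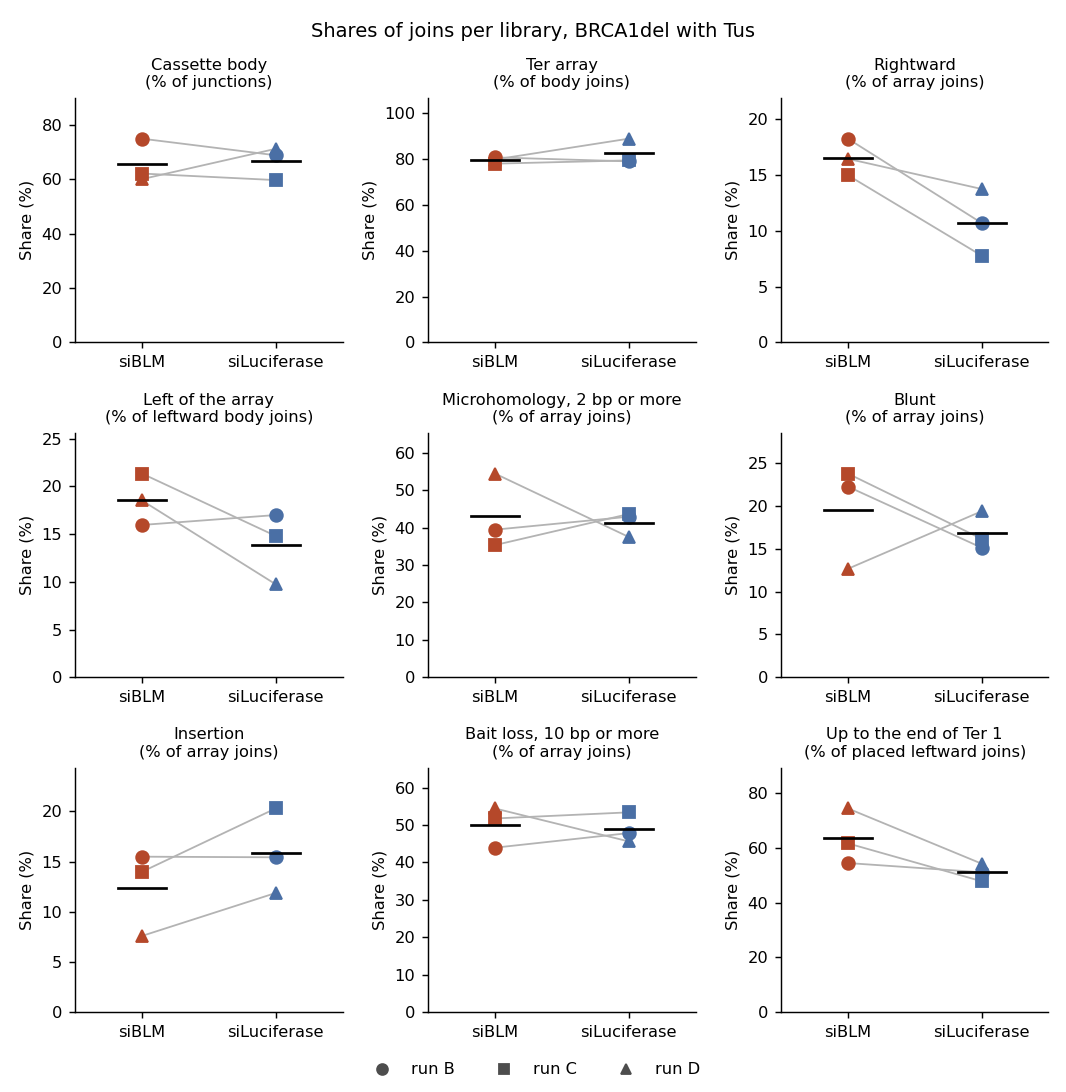
Each panel plots 1 share in percent for the siBLM and siLuciferase libraries of BRCA1del cells with Tus, with a symbol per sequencing run, a grey line joining the libraries of a run and a black bar at the mean of the 3 runs. The rightward share and the share up to the end of Ter 1 were higher with siBLM in all 3 runs, whereas body, microhomology, blunt and bait-loss shares went the other way in run D than in runs B and C.

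The placed rightward joins lay mostly at the far end of the array, where the least prey is needed for placement. A rightward join nearer Ter 1 needs a longer read to reach unique sequence. The filter thus favours the far end, and its part in these positions was not tested. Of 65 placed with siBLM, 52 (80%, Wilson 95% interval 68.7 to 87.9%) started at Ter 5 or beyond, and of 43 with siLuciferase, 38 (88.4%, 75.5 to 94.9%). Ter 6 alone held 25 of the siBLM joins and 13 of the siLuciferase joins, and Ter 5 held 20 of the siBLM joins and 13 of the siLuciferase joins. The median position per library was 3208, 3224 and 3228 with siBLM and 3224, 3226 and 3216 with siLuciferase, so the libraries overlapped (exact permutation p = 0.9). The share of rightward array joins that could be placed was close in both groups, 53.7% with siBLM and 55.1% with siLuciferase over all runs.

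Left of the array the direction of the joins did not follow that in the array. There, 31 of 169 joins were rightward with siBLM, against 38 of 159 with siLuciferase. By run this was 25.3%, 10.7% and 21.1% with siBLM and 24.7%, 23.7% and 21.1% with siLuciferase, so only run C differed by more than 1 point. In the polyA region 42.6% of 439 siBLM joins and 46.6% of 491 siLuciferase joins were rightward. Right of the I-SceI site the rightward joins numbered 10 of 17 with siBLM (6 of 10, 3 of 6 and 1 of 1 by run) and 1 of 18 with siLuciferase (the 1 in run C). This count was singled out after its values were seen and was given no test.

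More of the leftward array joins stopped at Ter 1 or short of it with siBLM. Of the placed leftward joins, 54.5%, 61.7% and 74.5% ended no farther in than Ter 1 in siBLM runs B, C and D, against 51.1%, 47.9% and 54.3% in the siLuciferase runs. Each siBLM library was above every siLuciferase library, by little in run B. By run the difference was 3.38, 13.8 and 20.2 points, the last with only 47 placed leftward siBLM joins. With the runs pooled it was 8.57 points. The mean was 63.6% ± 10.1 with siBLM and 51.1% ± 3.22 with siLuciferase (SD, n = 3 libraries each), a difference of 12.5 points with a common odds ratio of 1.48 (95% interval 1.14 to 1.91). It passed the exact test (adjusted p = 0.0146), and the exact permutation over libraries gave 0.1. The call did not hold without run C (11.8 points, adjusted exact p = 0.429), without run D (8.61 points, 0.0632), or with each position counted once per library (8.14 points, 0.466).

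The share of leftward array joins that could be placed also varied between libraries, 83.8%, 77% and 71.2% in siBLM runs B, C and D and 75.7%, 65.5% and 76.1% in the siLuciferase runs, higher with siBLM in runs B and C and lower in run D, and its part in the result was not tested. With all leftward array joins in the denominator, a choice made after seeing the data, the difference was 11.6 points (adjusted exact p = 0.000533). That setting counts every join that could not be placed as not up to Ter 1. It thus takes in the difference in placement (79.7% placed with siBLM and 72% with siLuciferase over all runs) and does not remove it. The median prey length of leftward array joins was 171, 130 and 106.5 bp with siBLM and 162, 129 and 125.5 bp with siLuciferase, lowest in run D of both groups.

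By element, 20.3% of 479 placed leftward joins with siBLM lay in the 24 bp before Ter 1, against 14.3% of 489 with siLuciferase. This stretch was higher with siBLM in each run, with 18.4%, 21.3% and 25.5% against 13.6%, 17.8% and 10.5% with siLuciferase. Ter 1 itself held 39% with siBLM and 36.4% with siLuciferase, and Ter 2 held 18.4% with siBLM and 19.4% with siLuciferase. Farther in, counts were 25 with siBLM against 38 with siLuciferase in Ter 3, and 6 with siBLM against 15 with siLuciferase in the 38 bp between Ter 3 and Ter 4. The 5 bp before Ter 5 held 5 joins with siBLM and 2 with siLuciferase. The second set, Ter 4 to Ter 6, held 14, 10 and 2 joins with siBLM and 18, 11 and 7 with siLuciferase. Joins up to the end of Ter 3 made up 92.1% with siBLM and 88.5% with siLuciferase, a mean difference of 4.14 points that did not pass the test (adjusted exact p = 0.186). The median leftward position was 3068, 3066 and 3065 in the siBLM libraries and 3071, 3073 and 3069 in the siLuciferase libraries, a mean difference of -4.5 bp without overlap (exact permutation p = 0.1, 0.8 after adjustment over 8 lengths and positions).

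**Figure D2:**
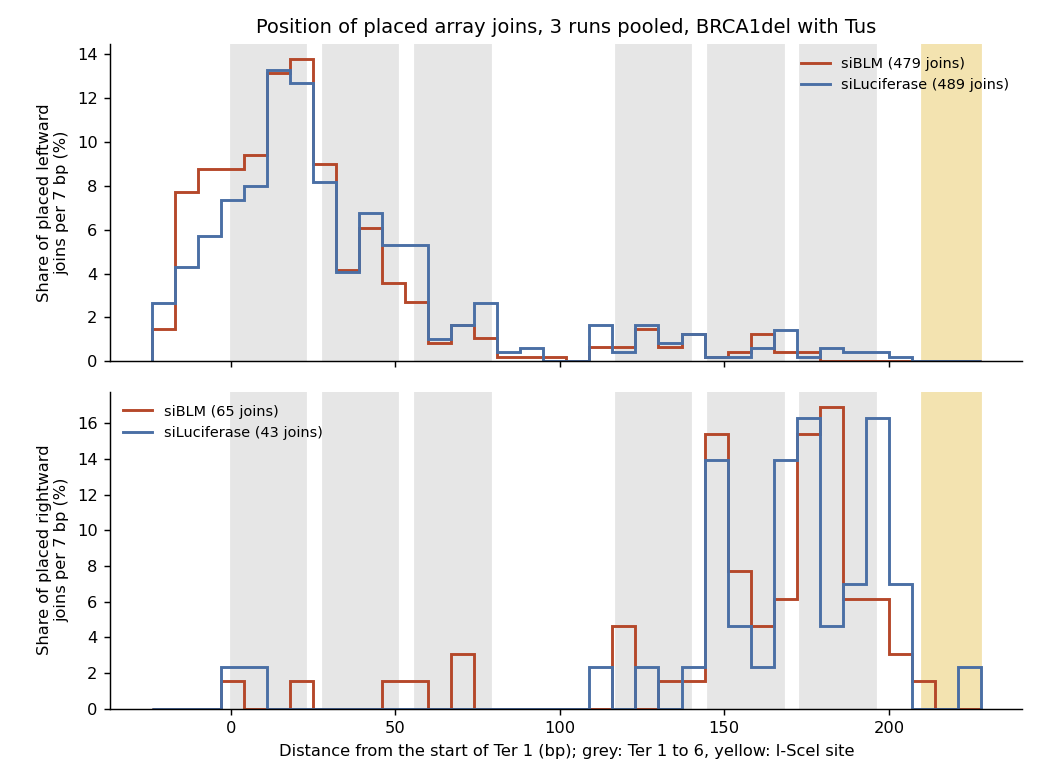
The share of placed leftward (upper) and rightward (lower) array joins per 7 bp is plotted in percent against the distance from the start of Ter 1 in bp, for siBLM and siLuciferase with the 3 runs pooled; grey bands are Ter 1 to 6 and the yellow band is the I-SceI site. Leftward joins (479 with siBLM, 489 with siLuciferase) gathered around Ter 1 in both groups, with more siBLM joins before it. Placed rightward joins (65 and 43) gathered at Ter 5 and Ter 6. Placement needs the least prey near Ter 1 for leftward joins and near Ter 6 for rightward joins, so it favours these ends.

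No single position dominated in either group. The 5 array positions with the most joins were all leftward and all in Ter 1 by the deposited coordinates, at 3068, 3052, 3063, 3065 and 3066. Position 3068 took 14 joins with siBLM and 15 with siLuciferase, of which 14 with siBLM and 13 with siLuciferase were placed. Position 3052 took 13 with siBLM and 15 with siLuciferase, all placed. Position 3063 took 13 with siBLM and 15 with siLuciferase, of which 9 with siBLM and 14 with siLuciferase were placed. Position 3065 had 12 siBLM joins, all placed, and 13 siLuciferase joins, 11 of them placed. Position 3066 had 14 siBLM joins, 12 of them placed, and 11 siLuciferase joins, 10 of them placed. The joins that were not placed may lie in the second copy instead. None of these held more than 2% of the array joins of either group, and the 722 siBLM joins used 389 distinct positions and directions summed over libraries, against 410 for the 757 siLuciferase joins.

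Joins left of the array were counted as a share of the leftward body joins. They made up 16%, 21.3% and 18.5% with siBLM in runs B, C and D and 17%, 14.8% and 9.74% with siLuciferase. The siBLM value was higher in runs C and D and lower in run B, a mean difference of 4.76 points (common odds ratio 1.27, 95% interval 0.973 to 1.66, adjusted exact p = 0.195, exact permutation p = 0.2). Without run B the difference was 7.66 points and passed (adjusted exact p = 0.031), and with the window cut down to Ter 1 to Ter 6 it was 9.76 points (adjusted exact p = 0.00406). That cut counts the 24 bp before Ter 1 as left of the array. This stretch held 97 placed leftward joins with siBLM and 70 with siLuciferase, which also count in the share up to Ter 1. In the wider window, 86 of the 138 joins left of the array with siBLM (62.3%) and 58 of 121 with siLuciferase (47.9%) lay within 100 bp of it. By run this was 64.3%, 65.7% and 40% with siBLM and 39.3%, 57.8% and 53.3% with siLuciferase, so run D went the other way. Within 500 bp lay 120 with siBLM and 98 with siLuciferase.

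The structure of each join was read from its sequence. Bait and prey could share bases at the join (microhomology, counted from 2 bp), meet with none shared (blunt), or have bases of neither between them (insertion). It was called for 720 of 722 siBLM and 750 of 757 siLuciferase array joins. Blunt joins made up 22.3%, 23.8% and 12.7% with siBLM in runs B, C and D, against 15.1%, 16.2% and 19.4% with siLuciferase. The siBLM share was higher in runs B and C and lower in run D, so the groups overlapped. Over junctions the common odds ratio was 1.41 (95% interval 1.08 to 1.85, adjusted exact p = 0.0328), whereas the mean difference over runs was 2.67 points (exact permutation p = 0.5). The call was lost without run B (0.447 points, adjusted exact p = 0.349) and without run C (0.207 points, 0.429). It was also lost with each position counted once per library (adjusted exact p = 0.193), with the window cut down to Ter 1 to Ter 6 (0.219) and without joins that hold insertions (0.0847).

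Microhomology did not pass the test, and neither did insertions. Microhomology of 2 bp or more was found in 39.4%, 35.3% and 54.4% of the siBLM array joins and 42.9%, 43.6% and 37.5% of the siLuciferase array joins. Here too run D went opposite to runs B and C. The mean difference over runs was 1.72 points, whereas the common odds ratio was 0.909 (95% interval 0.737 to 1.12, adjusted exact p = 0.503). Insertions were found in 15.5%, 14% and 7.59% with siBLM and 15.4%, 20.3% and 11.9% with siLuciferase, a mean difference of -3.51 points (common odds ratio 0.791, 95% interval 0.593 to 1.06, adjusted exact p = 0.223). The mean difference was -5.3 points without run B and -2.11 points without run C. Insertions of 10 bases or more were 14 with siBLM and 18 with siLuciferase. Of 41 single-base insertions with siBLM 15 were A and 13 T, and of 46 with siLuciferase 13 were A and 19 T.

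By length, overlaps of 1 bp were the most frequent class over all runs, 24.7% with siBLM and 25.2% with siLuciferase, followed by 2 bp with 21.2% for siBLM and 23.1% for siLuciferase. The 2-bp class in siBLM run D, 30 of 79 joins or 38%, stood above the 16.1% to 25.2% of the other 5 libraries. Overlaps of 3 bp made up 8.89% with siBLM and 9.73% with siLuciferase, those of 4 bp 5.83% with siBLM and 6.53% with siLuciferase, and those of 6 bp or more 2.5% with siBLM and 2% with siLuciferase. The mean overlap of joins without an insertion was 1.66 bp ± 0.107 with siBLM and 1.70 bp ± 0.145 with siLuciferase (SD, n = 3 libraries each, exact permutation p = 0.9).

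**Figure D3:**
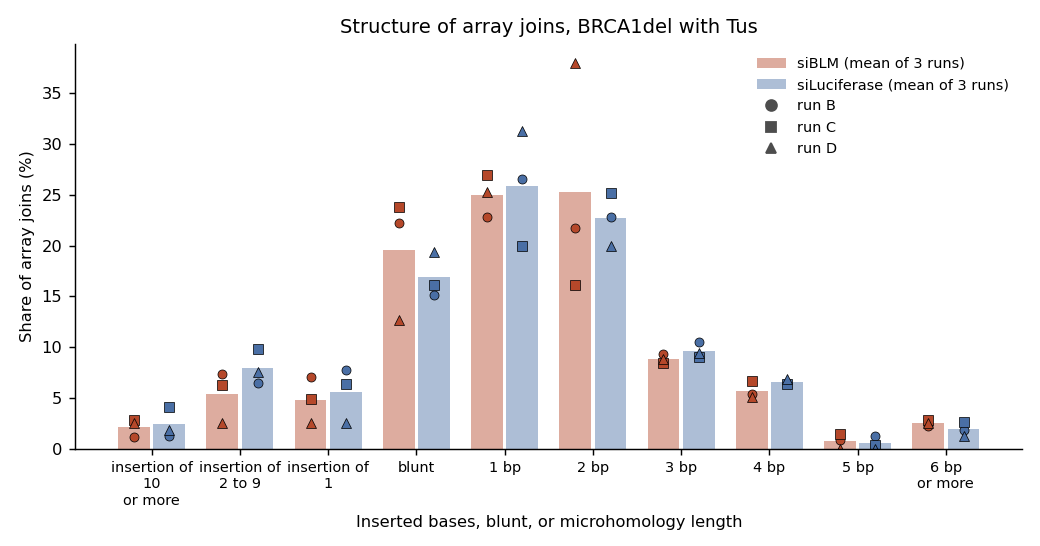
Bars give the mean share in percent of array joins over the 3 runs and symbols the single runs, by class of insertion, blunt join or microhomology length, for siBLM (left bar of each pair) and siLuciferase. Blunt joins were higher with siBLM in runs B and C and lower in run D, where 2-bp microhomology reached 38%.

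Split by direction and place, none of the 12 tests of structure passed after adjustment. Unadjusted, 1 of them had an exact p below 0.05, for blunt joins among leftward array joins, 23.8%, 25.1% and 12.1% with siBLM in runs B, C and D against 15.2%, 15.5% and 21% with siLuciferase (common odds ratio 1.51, exact p = 0.00434, 0.0521 after adjustment over the 12). Among rightward array joins, 19 of 121 were blunt with siBLM and 12 of 78 with siLuciferase, and 51 had microhomology with siBLM and 31 with siLuciferase. In the polyA region 62 of 263 siBLM joins and 52 of 295 siLuciferase joins were blunt (adjusted exact p = 0.439). Left of the array, microhomology was found in 64 of 151 siBLM and 69 of 140 siLuciferase joins (adjusted exact p = 0.718).

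Structure by position in the array is given as a description, with no test. Among placed leftward joins up to the end of Ter 1, 80 of 282 siBLM joins (28.4%) and 44 of 247 siLuciferase joins (17.8%) were blunt. Beyond Ter 1 these were 39 of 195 (20%) with siBLM and 36 of 238 (15.1%) with siLuciferase. Microhomology was found in 33.7% with siBLM and 32% with siLuciferase up to Ter 1, and in 41% with siBLM and 50.4% with siLuciferase beyond it. By run, blunt joins up to Ter 1 were 27.3%, 32.2% and 20% with siBLM in runs B, C and D and 15%, 19.5% and 21.1% with siLuciferase, and beyond Ter 1 they were 20.7%, 20.8% and 8.33% with siBLM and 17%, 11.9% and 16.7% with siLuciferase. Run D thus went opposite to runs B and C in both. Microhomology up to Ter 1 was 34.8%, 27.8% and 48.6% with siBLM and 32.7%, 35.1% and 26.3% with siLuciferase, lower with siBLM in run C alone. The microhomology share beyond Ter 1 was 40.5%, 40.3% and 50% with siBLM and 48.1%, 52.4% and 52.1% with siLuciferase.

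The most used microhomologies occurred in both groups. ACTT, at the bait end 3 bp short of the cut, joined 16 times with siBLM and 20 times with siLuciferase, always to leftward prey, and all 21 of its placed joins lay inside a Ter element. TTTAGTT, 32 bp from the cut, joined 10 times with siBLM and 8 times with siLuciferase, again leftward and with all 12 placed joins in a Ter element. AGTT gave 8 leftward joins with siBLM and 6 with siLuciferase. These words thus joined prey of a single direction, and how often the array holds them in the other direction was not counted.

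AGTA and GTAACT joined to rightward prey in every case. AGTA was used 9 times with siBLM (5 times in run B and 4 in run C) and 4 times with siLuciferase (3 in run B and 1 in run D). GTAACT was used 6 times with siBLM and 3 times with siLuciferase. TCGA, whose placed joins lay outside the Ter elements and ran leftward, was used 2 times with siBLM and 5 times with siLuciferase. All array joins together were rightward 121 times with siBLM and 78 times with siLuciferase, and leftward 601 and 679 times. The counts are too small for a test of single words.

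Bases lost from the bait end did not differ past the threshold. Losses of 10 bp or more were found in 43.9%, 51.7% and 54.4% of the siBLM array joins in runs B, C and D, and in 47.8%, 53.4% and 45.6% of the siLuciferase joins. Runs B and C were lower with siBLM and run D higher. The mean difference over runs was 1.09 points, whereas the common odds ratio was 0.954 (95% interval 0.776 to 1.17, adjusted exact p = 0.673). The median loss was 7, 10 and 11 bp with siBLM and 8, 12 and 8 bp with siLuciferase (exact permutation p = 1). Rightward array joins had lost less in each library of both groups, with medians of 6, 7 and 4 bp against 8, 11 and 15 bp for leftward joins with siBLM, and 6, 6 and 5.5 bp against 9, 13 and 8 bp with siLuciferase.

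The bait end that reaches the cut was the most used one. The cut was itself inferred from where reads leave the bait, so this is partly built in. The bait end was kept whole in 137 of 720 siBLM joins (19%) and 111 of 750 siLuciferase joins (14.8%). By run this was 22%, 17.1% and 12.7% for siBLM and 13.6%, 13.5% and 19.4% for siLuciferase. Of these joins 49 with siBLM and 38 with siLuciferase were blunt. The end 3 bp short, which carries ACTT, followed with 58 joins with siBLM and 65 with siLuciferase. The ends 7, 17 and 4 bp short had 46, 31 and 30 joins with siBLM and 33, 27 and 26 with siLuciferase. Losses of 50 bp or more were found in 7.32%, 5.59% and 13.9% with siBLM and 8.64%, 14.3% and 8.12% with siLuciferase.

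**Figure D4:**
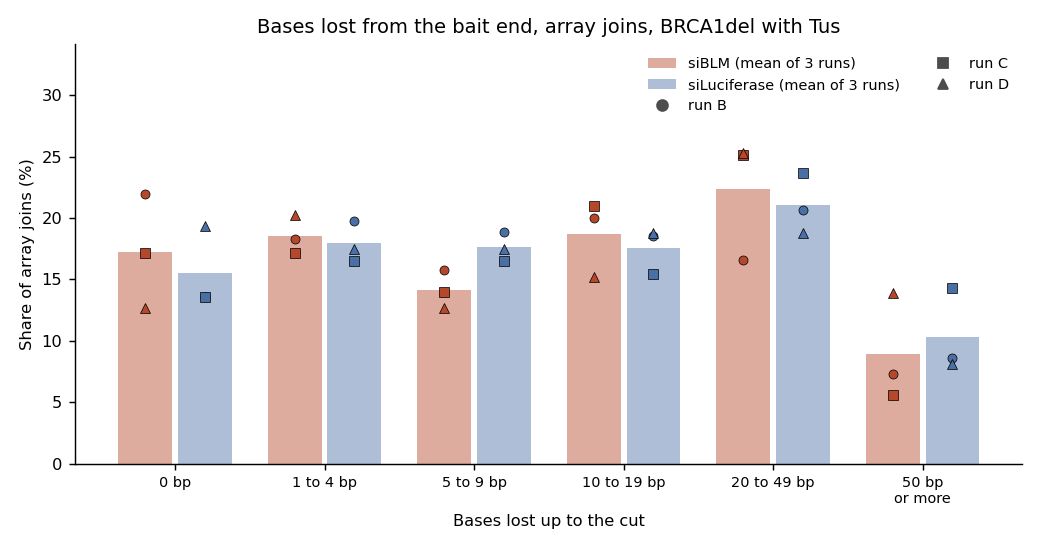
Bars give the mean share in percent of array joins over the 3 runs and symbols the single runs, by the number of bases lost from the bait end up to the cut, for siBLM (left bar of each pair) and siLuciferase. All loss classes overlapped between the groups except 5 to 9 bp, where the siBLM runs lay between 12.7% and 15.8% and the siLuciferase runs between 16.5% and 18.8%.

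The effect of siBLM was then set against that in BRCA1flox cells over runs C and D, which all 4 groups share. These runs may not be separate libraries, and this was not checked in the BRCA1flox groups. In BRCA1del cells rightward array joins over these runs had a common odds ratio of 1.75 for siBLM over siLuciferase (95% interval 1.13 to 2.71). In BRCA1flox cells they were 9.03% and 7.69% with siBLM, against 1.84% and 1.29% with siLuciferase (common odds ratio 5.55, 95% interval 2.77 to 11.1). The ratio of the odds ratios, BRCA1del over BRCA1flox, was 0.315 and passed a binomial likelihood-ratio test over junctions (adjusted p = 0.0175 over 9 shares). In percentage points the siBLM differences were 4.96 in BRCA1del and 6.80 in BRCA1flox cells, and this gap of -1.84 points was not tested on that scale. The siLuciferase level was 7.78% and 13.8% in BRCA1del cells and under 2% in both BRCA1flox runs.

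The siBLM effect on the body share differed between genotypes as well. In BRCA1del cells siBLM minus siLuciferase was -4.37 points over these runs. In BRCA1flox cells the share was 68.1% and 75.1% with siBLM, against 77.4% and 87.1% with siLuciferase, a difference of -10.7 points (ratio of odds ratios 1.64, adjusted binomial likelihood-ratio p = 0.00728). The share left of the array was higher with siBLM by 7.66 points in BRCA1del cells, and the difference was -1.42 points in BRCA1flox cells (ratio of odds ratios 1.83, adjusted binomial likelihood-ratio p = 0.0259). For the other 6 shares the test of the difference between genotypes did not pass, with adjusted p between 0.27 and 0.947. The share up to Ter 1 was among them, with 53.3% and 28.4% in BRCA1flox siBLM libraries and 33% and 41.6% in BRCA1flox siLuciferase libraries, where runs C and D went opposite ways.

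**Figure D5:**
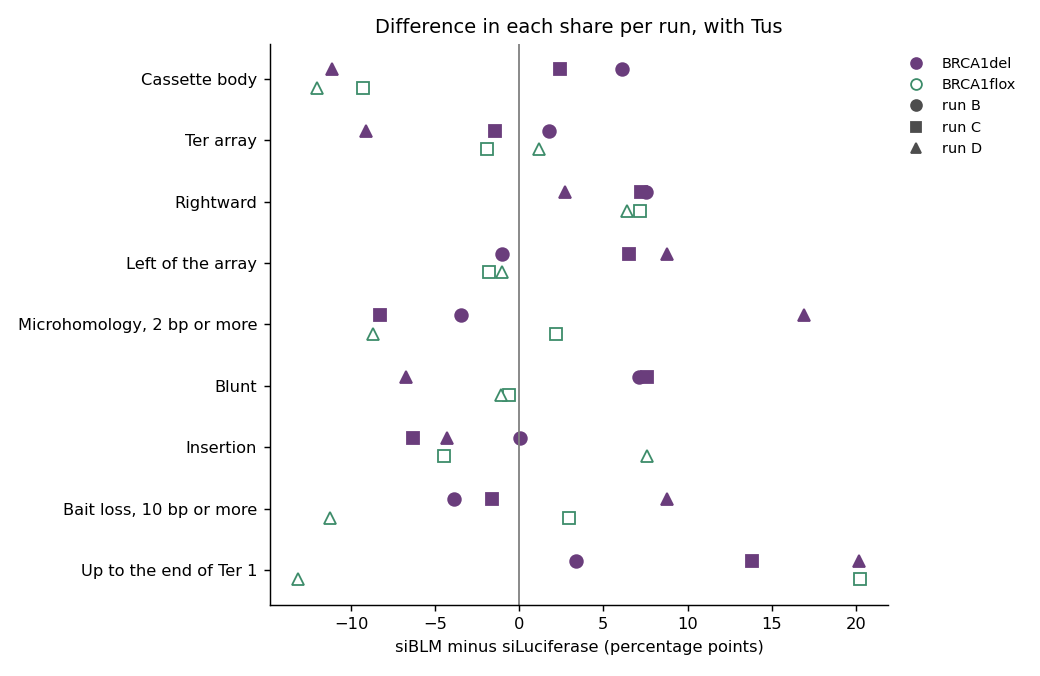
Each symbol is siBLM minus siLuciferase in percentage points for 1 share in 1 run, filled for BRCA1del and open for BRCA1flox cells, all with Tus. The rightward share was higher with siBLM in every run of both genotypes, between 2.71 and 7.56 points in BRCA1del and 6.4 and 7.19 points in BRCA1flox cells.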

How the data were processed

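LAM-HTGTS libraries (linear amplification from a primer beside the bait cut, then sequencing of whatever the bait was joined to) were made from sonicated DNA with XbaI blocking and run on a MiSeq, per the labels' protocols. The submitters' processing notes name Bowtie2 and mm9; how reads were filtered or duplicates removed was not given in the sources used here. For each junction the authors deposited its position, strand, alignment start and end and read, pooled by group; these other values are positions, not counts or rates. The tables carry no replicate number, so the sequencing run in the read name was taken as the library, which nothing ties to a labelled replicate.

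The cassette was rebuilt from the reads of all groups by 6 passes of voting. The bait was extended base by base from the commonest read start until most reads still matching no longer shared the next base. Its end there was taken as the cut. Of 154 reads spanning the stretch between the last Ter and GFP, 150 held 1 base more than the deposited coordinates, and structure was called with that base added. The bait part of a read was found by an exact 10-bp word and the prey part by the best ungapped place of its first 60 bases (at least 80% matching) with an exact 12-bp word. The caller and the tests were tried on simulated data, with the outcome not given here. The simulated joins had known positions and only insertions shorter than 10 bases. Errors in the deposited positions and calls of longer insertions were thus not tested. Structure outside the array used only stretches covered by at least 10 reads. Python 3.11.15 with scipy 1.17.1 and statsmodels 0.14.6 gave exact conditional tests stratified by run, Mantel-Haenszel odds ratios, exact permutation tests over libraries, binomial likelihood-ratio tests, Benjamini-Hochberg adjustment within each family, and Wilson intervals.

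Named sites were the 5 array positions and 5 bait ends with the most joins and the 6 microhomologies of 4 bp or more with the most joins, over both siRNAs. Measures, lists and members were chosen with earlier results of these data known. Alternatives left out each run, pooled the runs, counted repeated joins once, narrowed the array window, kept placed reads only and moved each threshold.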

Additional observations from a re-analysis of the deposited data

Results flagged for a closer look

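The effect of siBLM differed between BRCA1del and BRCA1flox cells in 3 of 9 shares by a likelihood-ratio test of the difference itself over runs C and D. Because these runs may not be separate libraries, agreement between them may not be replication. For the body share the adjusted p was 0.00728, with siBLM minus siLuciferase at -4.37 points in BRCA1del and -10.7 points in BRCA1flox cells. Within BRCA1del cells run C gave 2.41 points and run D -11.1 points, whereas both BRCA1flox runs were negative (-9.31 and -12 points).

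For the rightward share the adjusted p was 0.0175, with common odds ratios of 1.75 in BRCA1del and 5.55 in BRCA1flox cells. The BRCA1flox value rests on 36 rightward joins with siBLM and 11 with siLuciferase.

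For the share left of the array the adjusted p was 0.0259, with 7.66 points in BRCA1del and -1.42 points in BRCA1flox cells, positive in both BRCA1del runs and negative in both BRCA1flox runs. Run B, which BRCA1flox cells lack here, gave -1.04 points in BRCA1del cells.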

How the results depend on the processing

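Over 84 alternative settings of the 9 shares, 55 kept both the direction and the side of the threshold, and 29 did not. Of these 29, 16 reversed the direction. The cause was not tested. No paired analysis was possible because the tables carry no replicate numbers; the stratum and the pairing in the report are the sequencing run. Leaving out 1 run at a time gave -4.37 to 4.26 points for the body share, -5.26 to 0.159 for the array share, 4.96 to 7.38 for the rightward share, 2.75 to 7.66 for the share left of the array, -5.88 to 6.73 for microhomology, 0.207 to 7.37 for blunt joins, -5.3 to -2.11 for insertions, -2.77 to 3.59 for long bait loss and 8.61 to 17.0 for the share up to Ter 1. The rightward and Ter 1 shares stayed higher with siBLM in all their settings, with adjusted exact p from 0.000397 to 0.0924 and from 0.000533 to 0.466. The lowest adjusted exact p of the Ter 1 share came from the setting with all leftward array joins in the denominator (11.6 points). That setting includes the difference in placement. Placed reads only gave 3.94 points for rightward and -0.352 for long bait loss. Main values were -0.879 points for the body share, 1.72 for microhomology and 1.09 for long bait loss. Pooled runs gave 1.87, -2.56 and -1.14 points for these shares, each of opposite sign. Runs C and D as 1 library, added after seeing the data, gave 2.26 points for the body share, -2.66 for microhomology and -1.02 for long bait loss. Each position once per library gave 1.01 points for the body share, 4.3 for blunt joins and 8.14 for the Ter 1 share. The narrow window gave 9.76 points left of the array, which then took in the 24 bp before Ter 1, and 1.24 for blunt joins. Without joins that hold insertions, blunt joins gave 2.51 and microhomology -0.457 points. Microhomology from 4 bp gave -0.0689 points, bait loss from 5 bp -2.39 and from 20 bp -0.0708, and counting up to Ter 3 gave 4.14. The blunt call ended with each position once, in the narrow window and without insertions, and the Ter 1 call with each position once and up to Ter 3. Depth limits run D most, with 79 siBLM array joins.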
